A study of Mus musculus with 8 samples.

Results

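Dystroglycan and the dystrophin complex were followed in muscle stem cells through 10 genes of the deposited table of 24630 genes, chosen by their symbols: Dag1, Dmd, Utrn, Sgca, Sgcb, Sgce, Sntb1, Sntb2, Dtna and Sspn. All 10 were present in the table. The cells came from male C57BL/6 mice of 2 ages, 4 young animals of 4 months and 4 old animals of 22 months, with no transgene or treatment named in the labels. Muscle stem cells of the limb muscles were sorted as CD45-, CD31-, Sca1- and VCAM+ and frozen without culture, and each library came from 1 animal. The comparison asks which transcripts of the complex differ with age in sorted cells that were not cultured.

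The complex joins the cytoskeleton to the basal lamina that covers the muscle stem cell. Dystroglycan is cut into an outer part, which binds laminin through a sugar chain, and a membrane part, which binds dystrophin or its relative utrophin, and these in turn bind actin. Sarcoglycans and sarcospan stabilise it in the membrane, and syntrophins and dystrobrevins hold signalling proteins on its inner face. In muscle stem cells dystrophin is known to bind the polarity kinase Mark2 and to orient asymmetric divisions, and the syntrophin Sntb1 is known to hold the kinase Mapk12, which acts on the methyltransferase Carm1.

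The libraries differed in depth in step with age, with 1.91 to 6.56 M reads in genes (M, mega) in the young and 20.1 to 24.9 M in the old libraries. Values are RPKM, a read count divided by gene length in kilobases and by the library's size in M reads, here with the sum of reads in genes as the size (library totals), unless the deposited scale is named. The deposited scale uses adjusted library sizes of 1.14 to 1.64 times the reads in young and 0.678 to 0.849 times the reads in old libraries. Genes with a mean of at least 1 deposited RPKM were tested, 11096 in all, and their median log2 fold change (old minus young) was -0.19 by library totals, against 0.36 in the deposited values. That median was -0.40 for genes of 1 to 5 RPKM and -0.01 for genes of at least 5 RPKM on library totals. Of these classes 28.4% and 13.1% were called lower and 1.39% and 12.5% higher in old (limma, adjusted p under 0.05). The 1414 olfactory and vomeronasal receptor genes, taken here as a set that muscle does not use, averaged 0.202 to 0.982 RPKM in young and 0.0163 to 0.0360 RPKM in old libraries. The 9 markers of muscle stem cells, among them Pax7 and Vcam1, were all detected at both ages. They summed to 2253 to 3279 RPKM in young and 2270 to 3022 RPKM in old libraries, with 7 of 9 lower and 2 higher in mean in old. Because these are bulk libraries, fewer cells of a type and less RNA per cell cannot be told apart.

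In old muscle stem cells Dag1, Sspn, Sntb1, Sgcb and Sgca made up a smaller share of reads than in young cells, while Dmd and Utrn, the long actin-binding members, did not pass the test. The calls of Sntb1 and Sgca were the least stable, lost in 12 of 18 and 7 of 19 alternative fits. Of the 9 members tested, 5 fell, 0 rose and 4 were not called on library totals (limma, Benjamini-Hochberg adjusted p under 0.05), where 27.6% of all genes tested were called, 20.5% as lower and 7.11% as higher. Sntb2 alone had an unadjusted p under 0.05 in the higher direction. The members' median log2 fold change was -0.53, beside -0.19 for all genes tested. On the deposited scale Dmd, Utrn and Sntb2 were called higher, where 42.1% of all genes were, and Dag1 was called lower, where 5.34% were (47.4% in either direction). Dag1 was thereby the 1 member called in the same direction on both scales, and 5 members (Dmd, Utrn, Sgca, Sgcb and Sgce) changed sign between them. The values of old and young libraries did not overlap, with old lower, for 6 of the 9 members on library totals, where this held for 23.1% of all genes tested, and for 0 members with old higher, where it held for 7.87%. On the deposited scale Dmd, Utrn, Sgce and Sntb2 lay apart with old higher, as did 39.8% of all genes, and no member with old lower, as did 4.37%.

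**Figure D1:**
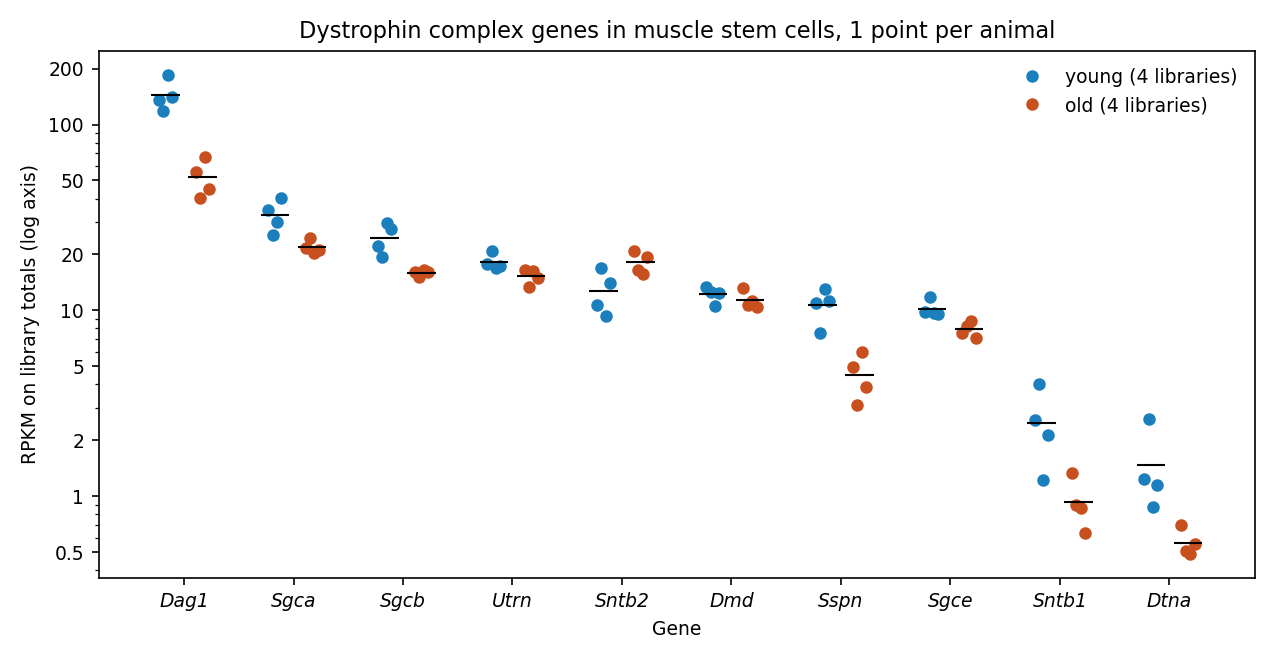
RPKM on library totals (log axis) of the 10 genes, with 1 point per library, 4 young and 4 old, and a line at each group's mean. Dag1 stood highest at both ages, and its 4 old values, 40.4 to 66.6, lay below its 4 young values, 118 to 185.

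Dag1 encodes dystroglycan, the laminin receptor at the core of the complex (ENSMUSG00000039952.15, GRCm38 chromosome 9, 108204634 to 108263958, minus strand, 6357 bases of merged exons). Its RPKM was 135, 118, 185 and 141 in young libraries 1 to 4 and 55.8, 40.4, 66.6 and 45.0 in old libraries 1 to 4. All old libraries lay below all young ones, and the lowest young value was above the highest old value. The means were 145 ± 28.6 in young and 52.0 ± 11.7 in old animals (SD, n = 4 each), and Dag1 fell by 1.47 ± 0.18 (SE) on the log2 scale (adjusted p = 0.00128, limma). Dag1 ranked as number 222 from the lowest fold change among the 11096 genes. On the deposited scale the means were 117 ± 37.3 and 65.5 ± 10.3 RPKM and the log2 fold change -0.78 ± 0.24 (limma, adjusted p = 0.0188). There young library 2, with 72.4 RPKM, lay below old library 3, with 79.8 RPKM, so that the groups overlapped. Dag1 was called lower under all 19 alternatives run, with log2 fold changes of -1.64 to -0.78 and adjusted p-values of 0.000393 to 0.0188.

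The 3 genes whose profile over the 8 libraries lay closest to that of Dag1 were Cavin2, Zfyve19 and Tmem51. The measure was the root-mean-square difference of log2(RPKM + 1) after centring each gene on its mean, and it was 0.15 for each of the 3. Cavin2, a coat protein of caveolae, had 119 ± 20.5 RPKM in young and 46.9 ± 9.70 RPKM in old animals (SD, n = 4 each). Tmem51, a membrane protein, had 63.1 ± 11.4 and 26.7 ± 6.77 RPKM, and Zfyve19, a regulator of abscission, had 4.57 ± 1.01 and 1.26 ± 0.376 RPKM. These genes were selected for this likeness, so their difference with age adds no separate test.

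Dystrophin, Dmd, ties dystroglycan to actin and is the gene mutated in Duchenne muscular dystrophy. It lies on chromosome X (82948870 to 85206141, plus strand) and spans 2257 kb. Its RPKM was 13.3, 12.5, 10.5 and 12.5 in the young and 13.3, 10.7, 11.3 and 10.4 in the old libraries, in order of library number. The groups overlapped, and the highest values of each age, both from library 1, were nearly equal. The log2 fold change was -0.09 ± 0.12 (limma, adjusted p = 0.586). In the deposited values it was 0.55 ± 0.16 (limma, adjusted p = 0.0141), with 9.65 ± 1.53 deposited RPKM in young and 14.5 ± 1.39 in old animals (SD, n = 4 each). The table counts all transcripts of the gene over 23801 bases of merged exons, while the longest coding transcript has 14910 bases and the shortest 1858. The full-length and the short dystrophins that start inside the gene therefore cannot be told apart.

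Utrophin, Utrn, the autosomal relative of dystrophin (chromosome 10, 12382188 to 12869365, minus strand), had 17.8, 20.9, 16.9 and 17.4 RPKM in the young and 16.6, 13.4, 16.4 and 14.9 RPKM in the old libraries. All old values lay below all young ones, with the nearest pair, young library 3 and old library 1, at 16.9 and 16.6. The log2 fold change was -0.24 ± 0.12 (limma, adjusted p = 0.149), against 0.42 ± 0.15 (adjusted p = 0.0330) in the deposited values. Among the 1613 genes tested with over 8000 bases, the class of Dmd and Utrn, the median log2 fold change was -0.20, beside -0.19 for all genes.

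The sarcoglycans are membrane proteins that brace dystroglycan and whose loss causes limb-girdle muscular dystrophies. Sgcb, which striated and smooth muscle both use (chromosome 5, 73632749 to 73647790, minus strand), had 22.2, 19.5, 29.6 and 27.3 RPKM in the young and 16.04, 15.1, 16.5 and 16.1 RPKM in the old libraries. The old values lay close together (coefficient of variation 3.84%, against 18.7% in young) and below every young value. Sgcb fell by 0.58 ± 0.14 (adjusted p = 0.0138, limma) and stayed called with each library left out in turn. Sgca, the sarcoglycan of striated muscle (chromosome 11, 94962791 to 94976327, minus strand), had 34.7, 25.3, 29.8 and 40.4 RPKM in the young and 21.7, 24.6, 20.3 and 21.3 RPKM in the old libraries. The groups lay apart by a small margin, 25.3 in young library 2 against 24.6 in old library 2. Sgca fell by 0.53 ± 0.15 (limma, adjusted p = 0.0242), and it lost its call without young library 1 (0.0661) or 4 (0.0549), or old library 1 (0.0505), 3 (0.0575) or 4 (0.0601), and with reads thinned to 1.91 M per library (0.120). On the deposited scale neither was called, with log2 fold changes of 0.08 for Sgcb and 0.14 for Sgca.

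Sgce, the sarcoglycan that replaces Sgca in many other tissues and is expressed from the paternal copy (chromosome 6, 4674350 to 4747207, minus strand), had 9.83, 11.8, 9.72 and 9.52 RPKM in the young and 7.57, 8.29, 8.73 and 7.14 RPKM in the old libraries. Every old value lay below every young one, and young library 2 stood above the other young libraries. The log2 fold change was -0.33 ± 0.12 (limma, adjusted p = 0.0569), against 0.30 ± 0.15 (adjusted p = 0.118) in the deposited values. With no filter on low values, where 9422 of 23461 genes were called lower, the adjusted p was 0.0384 (limma). Sspn encodes sarcospan, a small protein with several membrane spans that sits beside the sarcoglycans (chromosome 6, 145931641 to 145965223, plus strand). Its RPKM was 10.9, 7.54, 13.1 and 11.2 in the young and 4.997, 3.12, 5.96 and 3.90 in the old libraries, again with no overlap. Sspn fell by 1.09 ± 0.19 (limma, adjusted p = 0.00483) and stayed called with each library left out, with a log2 fold change of -0.50 ± 0.23 (adjusted p = 0.0865) on the deposited scale. Young library 3 was the highest and young library 2 the lowest of the young for Dag1, Sgcb and Sspn, and old library 3 the highest and old library 2 the lowest of the old for the same genes.

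Promoter sequence is shown for Dag1, Sgca and Sgcb, each called lower on library totals, and for Dmd, which was not called there. On the deposited scale Dag1 alone of these genes was called lower, and Dmd was called higher. RefSeq (GRCm38.p6) gave a start for 6 of the 10 members. For these 4 it lay within 53 bases of the GENCODE gene start, and the windows of Utrn and Sspn, 7630 and 232 bases away from it, are not shown. Each line gives the 250 bases before the start, 5′ to 3′ on the gene's strand, at chr9:108263959-108264208 (minus) for Dag1, chr11:94976328-94976577 (minus) for Sgca, chr5:73647738-73647987 (minus) for Sgcb and chrX:82948620-82948869 (plus) for Dmd. Capitals mark matches on either strand to the E-box CANNTG, which myogenic factors bind, the GC box GGGCGG, the ETS core CCGGAA, the MCAT element CATTCC, the CCAAT box CCAAT or the TATA box TATAAA.
Dag1: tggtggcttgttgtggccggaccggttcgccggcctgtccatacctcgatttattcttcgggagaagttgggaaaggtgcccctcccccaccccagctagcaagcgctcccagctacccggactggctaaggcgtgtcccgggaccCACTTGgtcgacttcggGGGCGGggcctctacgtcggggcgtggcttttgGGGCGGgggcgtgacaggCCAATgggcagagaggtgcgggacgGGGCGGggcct
Sgca: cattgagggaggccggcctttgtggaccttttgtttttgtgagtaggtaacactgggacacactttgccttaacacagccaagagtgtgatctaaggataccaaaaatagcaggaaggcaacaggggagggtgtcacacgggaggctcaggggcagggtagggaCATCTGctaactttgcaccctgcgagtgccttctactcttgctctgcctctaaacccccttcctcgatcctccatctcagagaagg
Sgcb: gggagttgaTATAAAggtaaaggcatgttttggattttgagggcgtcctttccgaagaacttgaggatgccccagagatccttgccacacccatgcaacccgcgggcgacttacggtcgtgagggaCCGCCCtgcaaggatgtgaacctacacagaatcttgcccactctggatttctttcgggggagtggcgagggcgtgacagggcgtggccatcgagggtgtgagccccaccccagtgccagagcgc
Dmd: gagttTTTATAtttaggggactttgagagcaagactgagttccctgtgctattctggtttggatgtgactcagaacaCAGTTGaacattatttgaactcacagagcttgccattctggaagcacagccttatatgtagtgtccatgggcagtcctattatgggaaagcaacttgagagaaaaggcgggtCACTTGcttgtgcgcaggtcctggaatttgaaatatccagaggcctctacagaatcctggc
Of 32851 mouse promoter windows of the same length, 66.2% held the E-box, 32.7% the GC box, 12.03% the ETS core, 12.6% the MCAT element, 33.8% the CCAAT box and 12.4% the TATA box. The Dag1 window had a GC content of 67.6%, with 3 GC boxes, 1 CCAAT box and 1 E-box. The windows of Sgcb, Sgca and Dmd had GC contents of 58.4%, 52.8% and 45.2%, beside a median of 52.4% over all windows. Dmd had 2 E-boxes and 1 TATA box, Sgca 1 E-box, and Sgcb 1 GC box and 1 TATA box. The TATA matches lay at the far end of the windows, 245 bases before the start in Dmd and 241 in Sgcb. None of the 4 windows held the ETS core or the MCAT element, and no motif was matched in all 4. A match of letters is a description and not a binding site.

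The syntrophins are adaptors that bind dystrophin, utrophin and dystrobrevin and carry signalling enzymes and channels. Sntb2, the main syntrophin here (chromosome 8, 106935750 to 107019714, plus strand), had 10.8, 16.9, 9.39 and 14.0 RPKM in the young and 20.9, 16.5, 15.7 and 19.4 RPKM in the old libraries. The groups overlapped through young library 2, whose 16.9 RPKM lay above old libraries 2 and 3. The means were 12.8 ± 3.38 and 18.1 ± 2.46 RPKM (SD, n = 4 each), with a log2 fold change of 0.50 ± 0.18 that missed the threshold (limma, adjusted p = 0.0579). Without young library 2 Sntb2 was called higher, by 0.64 (adjusted p = 0.0228), as it was with limma-voom on the reads (0.57, adjusted p = 0.0266), with no filter (adjusted p = 0.0440) and on the deposited scale (1.15 ± 0.17, adjusted p = 0.000511). Over its 19 alternatives the adjusted p of Sntb2 ran from 0.000511 to 0.151, with the log2 fold change positive in each.

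Sntb1, the syntrophin tied to Mapk12 in muscle stem cells (chromosome 15, 55636388 to 55906949, minus strand), was expressed at a far lower level. Its RPKM was 2.59, 4.01, 1.22 and 2.14 in the young and 1.34, 0.897, 0.869 and 0.637 in the old libraries. These values rest on 20, 22, 23 and 35 reads in the young libraries and 77, 64, 57 and 38 in the old, each up to a common factor. Old library 1 lay above young library 3, so the groups overlapped. Sntb1 fell by 0.80 ± 0.25 (limma, adjusted p = 0.0351), and its young values came in the order of the mean over the olfactory and vomeronasal receptor genes, 0.402, 0.982, 0.202 and 0.360 RPKM in young libraries 1 to 4. With the mean of those receptor genes subtracted from each library the log2 fold change of Sntb1 was -0.62 (adjusted p = 0.0816). It was not called without young library 1, 2 or 4 or old library 2, 3 or 4 (0.0536 to 0.0909), and with the replicate number as a block its adjusted p was 0.0518. In all, 12 of its 18 alternatives lost the call, with adjusted p-values of up to 0.290.

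Dtna, or alpha-dystrobrevin, which anchors syntrophins to the complex (chromosome 18), was the member below the filter. Its RPKM was 1.24, 2.62, 0.880 and 1.15 in the young and 0.704, 0.507, 0.491 and 0.555 in the old libraries, from 136 reads in all young and 326 in all old libraries. The groups did not overlap, and the young values came in the same order as the receptor-gene means. In the fit with no filter its log2 fold change was -0.61 ± 0.22 (limma, adjusted p = 0.0441). That fit called 9422 of 23461 genes lower, so the call sets Dtna little apart from other genes. The part of the low-level signal was not tested for Dtna, and for Sntb1 not beyond that subtraction.

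**Figure D2:**
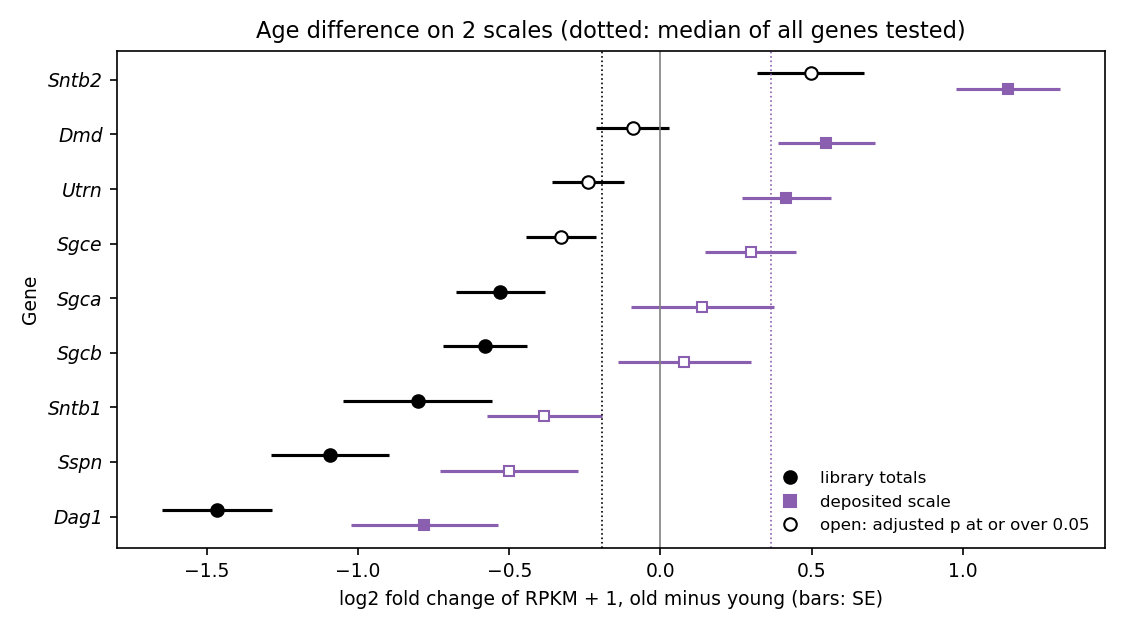
Log2 fold change of RPKM + 1, old minus young, with its SE for the 9 members tested (4 libraries per age), on library totals (black circles) and on the deposited scale (purple squares). Open symbols did not pass the threshold, dotted lines are the medians of all genes tested (-0.19 and 0.36), and Dag1 lies at -1.47 and -0.78.

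Ratios of 2 members within a library do not depend on how the libraries are scaled, and they are given as descriptions, chosen after the values were seen. The ratio of Dag1 to Dmd was 10.1, 9.48, 17.6 and 11.3 in the young and 4.21, 3.78, 5.91 and 4.32 in the old libraries. Every old ratio was below every young one. The ratio of Dag1 to Sgcb was 6.08, 6.08, 6.27 and 5.15 in the young and 3.48, 2.68, 4.02 and 2.80 in the old libraries, so Dag1 transcripts were lower relative to Sgcb too, with no overlap. Sspn relative to Sgcb went from 0.387 to 0.493 in young to 0.206 to 0.360 in old libraries, and Sntb2 relative to Dmd from 0.809 to 1.35 in young to 1.39 to 1.87 in old libraries, each without overlap. The ratio of Sgca to Sgcb overlapped between the ages (1.34 ± 0.245 in young and 1.38 ± 0.175 in old animals, SD, n = 4 each), as did that of Utrn to Dmd. These ratios show unequal change between 2 genes and do not tell which of them changed.

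**Figure D3:**
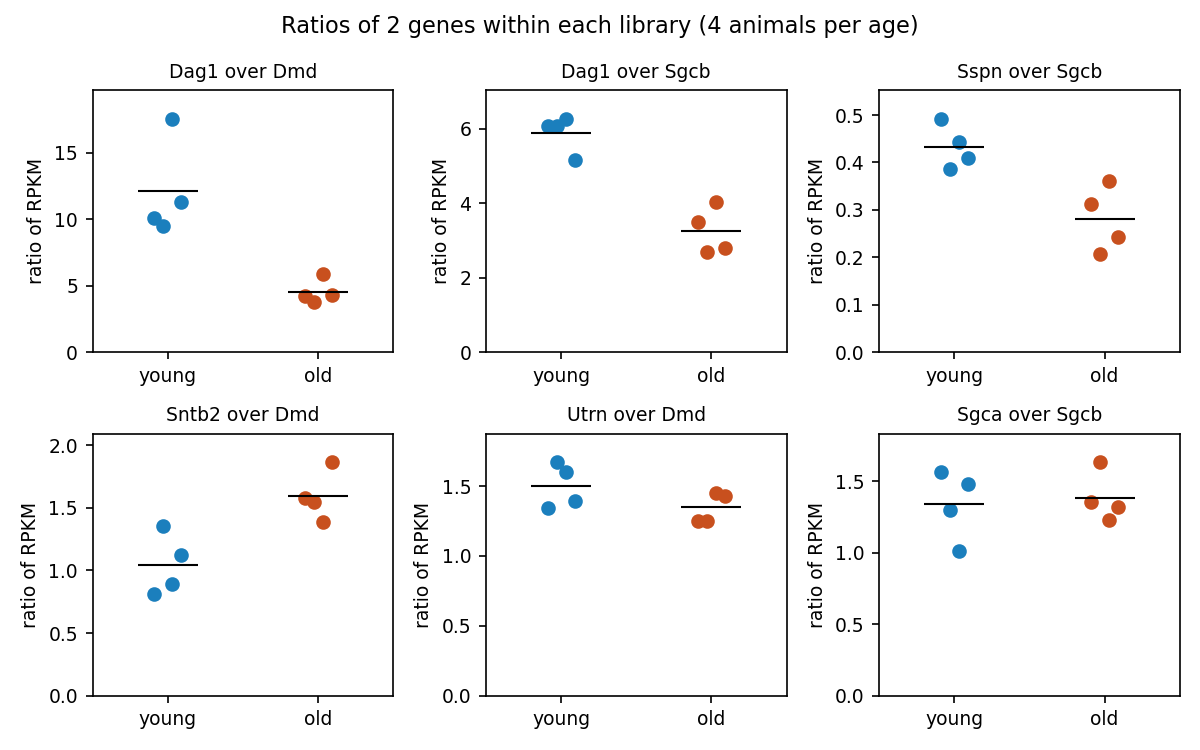
Ratio of the RPKM of 2 members in each library, 4 young and 4 old, with a line at each group's mean and the vertical axis from 0. The ratios with Dag1, Sspn or Sntb2 on top do not overlap between the ages, whereas Utrn over Dmd and Sgca over Sgcb do.

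Per gene length as implied by the deposited RPKM, which is that of merged exons for 7 members and another for Utrn, Sntb1 and Dtna, the young order of mean RPKM ran from Dag1 (145) through Sgca (32.6), Sgcb (24.6), Utrn (18.3), Sntb2 (12.8), Dmd (12.2), Sspn (10.7) and Sgce (10.2) to Sntb1 (2.49) and Dtna (1.47). Only Dag1 and Sgca, and Sgce and Sntb1, had ranges that did not overlap as neighbours in that order. In old libraries the order was Dag1 (52.0), Sgca (22.0), Sntb2 (18.1), Sgcb (15.9), Utrn (15.3), Dmd (11.4), Sgce (7.93), Sspn (4.49), Sntb1 (0.935) and Dtna (0.564). Sntb2 thus moved from the fifth to the third place and Sgcb from the third to the fourth, where the ranges of neighbours from Sgca to Utrn overlapped, as did those of Sntb1 and Dtna. The other neighbours in old libraries lay apart. Divided by the longest coding transcript instead, an alternative added after seeing the data, Sgce reached 61.1 RPKM in young and 47.4 in old animals, since its merged exons hold 10612 bases and that transcript 1776. Dmd reached 19.5 in young and 18.2 in old animals, above Utrn (18.3 and 15.3) at both ages. Sntb1 in young came to 1.45 and Dtna to 1.54, but their reads are known only up to a common factor, which leaves that order unsettled. The order of the members depends on this choice, while the ratio of old to young does not.

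Most other subunits lay below the filter. Of 10 other subunits of the complex 3 were tested, 1 fell, 0 rose and 2 were not called, beside 20.5% and 7.11% of all genes. The beta-dystrobrevin gene Dtnb fell by 0.69 ± 0.20 (limma, adjusted p = 0.0283), from 2.31 ± 0.749 to 1.04 ± 0.291 RPKM (SD, n = 4 each). Of its class, genes of 1 to 5 RPKM, 28.4% were called lower. Dtnb lost its call without old library 2 (0.0799) or 3 (0.0678), without young libraries 1 and 2 (0.0620) and under the replicate block (0.0726), and its log2 fold change was -0.49 with the receptor-gene mean subtracted (adjusted p = 0.0836) and -0.27 on the deposited scale (adjusted p = 0.176). Drp2, a short relative of dystrophin known from Schwann cells and named here after its values were seen, had 44.4 ± 6.51 RPKM in young and 36.8 ± 3.95 in old animals, above Dmd and Utrn, with a log2 fold change of -0.26 ± 0.13 (adjusted p = 0.172, limma). The 5 Schwann markers summed to 22.0 to 27.8 RPKM in young and 16.1 to 32.7 RPKM in old libraries.

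The laminin-binding sugar of dystroglycan is built by a chain of enzymes. Of 18 such genes 16 were tested, 5 fell, 1 rose and 10 were not called, beside 20.5% lower and 7.11% higher of all genes, and their median log2 fold change was -0.20, beside -0.19 for all genes. In the deposited values 5 were called higher and 1 lower, beside 42.1% and 5.34% of all genes. B4gat1, which primes the laminin-binding chain, fell by 1.11 ± 0.15 (limma, adjusted p = 0.00203). Its RPKM was 9.69 ± 0.312 in young and 4.03 ± 1.16 in old animals (SD, n = 4 each), and it was called lower under all 19 alternatives, the deposited scale included (-0.52, adjusted p = 0.0257). Pomt1, an O-mannosyltransferase of the first step, fell by 0.52 ± 0.17 (limma, adjusted p = 0.0451) and the mannose donor subunit Dpm1 by 0.52 ± 0.18 (adjusted p = 0.0471). Both belong to the class of 1 to 5 RPKM, of which 28.4% were called lower, and each lost its call in several fits. For Pomt1 these include leaving out any 1 old library (0.0808 to 0.107) and the replicate block (0.134), and its log2 fold change was -0.23 with the receptor-gene mean subtracted (adjusted p = 0.441) and -0.16 on the deposited scale (adjusted p = 0.426). For Dpm1 they include leaving out any library except young 2 (0.0641 to 0.121) and the block (0.0570), and its log2 fold change was 0.024 on the deposited scale (adjusted p = 0.926). B3galnt2, which adds a sugar to the core of the chain, rose by 0.58 ± 0.15 (limma, adjusted p = 0.0184), from 4.85 ± 0.906 to 7.74 ± 1.21 RPKM, and was not called without old library 2 (0.0562) or without young libraries 1 and 2 (0.0841).

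Of 9 extracellular ligands 8 were tested, 2 fell, 0 rose and 6 were not called, where 20.5% of all genes fell. The laminin gamma chain gene Lamc1 fell by 0.58 ± 0.13 (limma, adjusted p = 0.0120), from 23.0 ± 2.30 to 15.1 ± 2.34 RPKM, and the beta chain gene Lamb1 fell by 0.50 ± 0.17 (adjusted p = 0.0466), with its call lost in 7 of the 8 fits that leave out a library, all but the one without old library 3. Lama2, the laminin chain of the muscle basal lamina, had a log2 fold change of -0.33 ± 0.12 (adjusted p = 0.0670). Of 6 cytoskeletal linkers 5 were tested, and the ankyrins Ank3 and Ank2 and the intermediate filament partner Sync fell, by 0.67 ± 0.10, 0.56 ± 0.14 and 0.73 ± 0.14 (limma, adjusted p = 0.00256, 0.0152 and 0.00622), while Des and Plec were not called. These 3 of 5 stand beside 20.5% of all genes called lower, and 28.4% of genes of 1 to 5 RPKM, the class of Sync and Ank2. None of Lamc1, Lamb1, Ank2, Ank3 and Sync was called on the deposited scale, with log2 fold changes of -0.28 to 0.08.

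None of the polarity and signalling partners passed on library totals. Of 10 genes 9 were tested and 0 were called, with a median log2 fold change of -0.06. Mark2 had 4.28 ± 0.524 RPKM in young and 4.61 ± 1.19 in old animals (log2 fold change 0.07 ± 0.16, limma, adjusted p = 0.769). Mapk12 had 0.10 ± 0.21 and Carm1 0.04 ± 0.19. On the deposited scale Mark2, Mapk12, Carm1 and Egfr were called higher, 4 of 9 beside 42.1% of all genes.

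**Figure D4:**
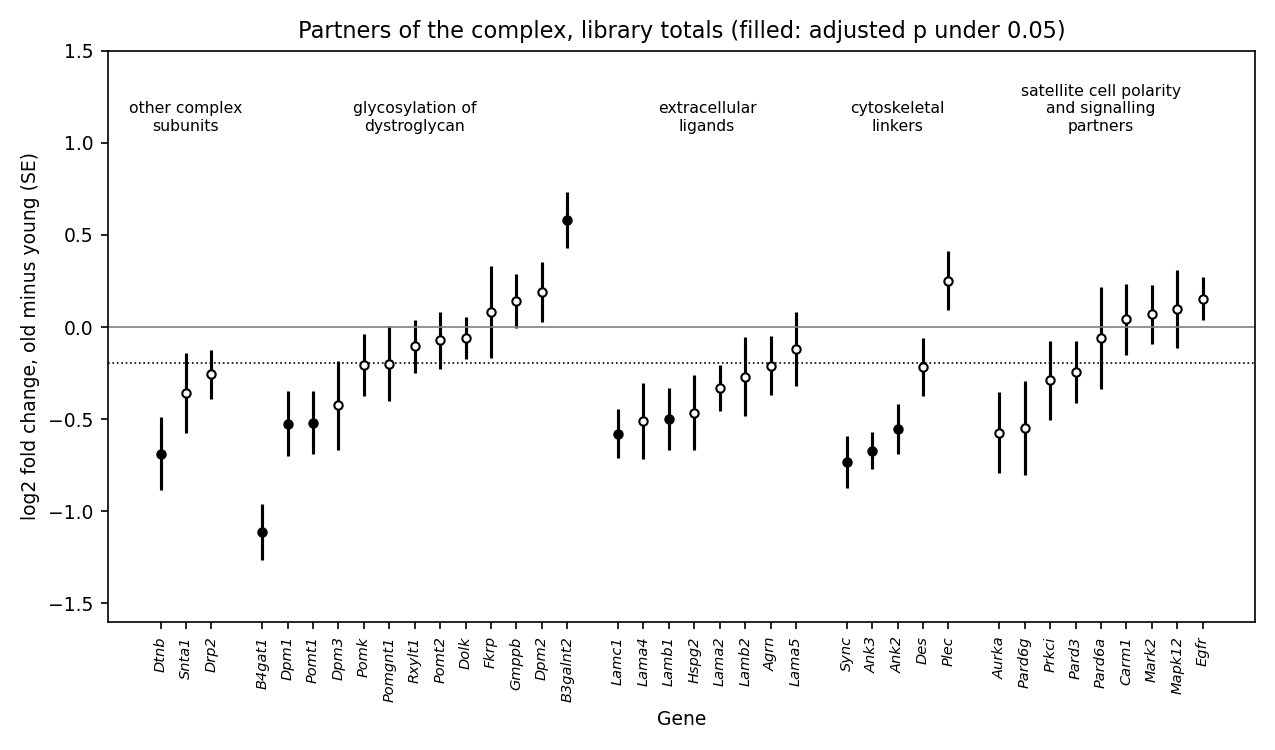
Log2 fold change of RPKM + 1 on library totals, old minus young, with its SE, for the tested genes of the 5 partner lists that are reported here (4 libraries per age). Filled points passed the threshold, the dotted line is the median of all genes tested (-0.19), and B4gat1 has the lowest value and B3galnt2 the highest.

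Markers of other cells moved with age in some lists, and their part in the values above was not tested. The 11 muscle fibre markers, from the tissue with the most dystrophin complex, summed to 167 to 385 RPKM in young and 62.1 to 396 RPKM in old libraries, and 10 of 11 had a lower mean in old. Pericyte and smooth muscle markers (7 genes) summed to 186 to 236 RPKM in young and 98.5 to 223 RPKM in old, endothelial markers (7) to 81.4 to 97.8 and 33.5 to 78.4, and leukocyte markers (6) to 75.3 to 237 and 39.1 to 128 RPKM, with a lower mean in old for 6 of 7, 7 of 7 and 5 of 6. Fibro-adipogenic markers (7) summed to 577 to 842 RPKM in young and 594 to 1256 RPKM in old, with 6 of 7 lower in old and Dcn alone higher. Tenocyte markers (6) summed to 196 to 303 RPKM in young and 514 to 1571 RPKM in old, with 5 of 6 higher. No marker of these lists was without a read at either age. The endothelial and tenocyte sums did not overlap between the ages, the endothelial lower and the tenocyte higher in old.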

How the data were processed

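RNA of 8 libraries was measured by sequencing. Oligo(dT)-primed cDNA was made with the SMARTer kit, per the labels' protocols, and such a kit does not mark the strand. Of the members, Dtna and Sspn alone share exonic bases with an antisense gene of GENCODE M21. The authors deposited 1 table of RPKM, and the submitters' processing notes name STAR, Trim Galore, edgeR, Subread and featureCounts, and as builds GRCm38 and mm10. Versions, roles and the annotation were not given in the sources used here. In 100% of genes the RPKM corresponded to whole reads (within 0.002) once zeros, which the table holds as a fraction of the gene's smallest value, were restored. The GENCODE length of merged exons gave whole reads for 18806 genes, 80.2% of those with a read. For other genes with reads the smallest whole solution was searched for, so the 100% is partly set by the method. Where the GENCODE length of merged exons did not match, as for Utrn, Sntb1 and Dtna, reads are known up to a common factor. The length implied for Utrn, 12382 bases, equals that of its longest coding transcript. Library totals are sums of these reads, the smallest whole solutions included, and amplified reads are not independent molecules.

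Ages were compared by limma-trend, in limma 3.58.1 under R 4.3.3, from log2(RPKM + 1) of genes with a mean of at least 1 deposited RPKM, Benjamini-Hochberg adjusted over all 11096, threshold 0.05. Fold changes on this scale understate low genes. The filter was set lower than 5 RPKM with long transcripts in mind. Dmd and Utrn passed 5 RPKM as well, and of the members tested Sntb1 alone, a gene of low level, needed the lower filter. The members and lists were chosen with earlier results of these data known. All members are named, and of each partner list the called genes with the largest changes, except some that are not reported here. Partner genes discussed beyond that were named after their values were seen. The labels do not name replicate numbers as pairs. Same-numbered libraries had correlations of -0.12 to 0.26 between their deviations from the group means, with 1 of 4 over 0.1. That 1, between the libraries numbered 3, was the highest between any young and any old library. These 4 values cannot tell whether same-numbered libraries shared a batch. Alternatives were pseudocounts of 0.1 and 5, other filters, limma-voom, no trend, thinning, the deposited scale, left-out libraries, a replicate block, subtraction of receptor-gene signal and another gene length, the last 2 added after seeing the data.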

Additional observations from a re-analysis of the deposited data

Results flagged for a closer look

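In groups of 4 libraries, 4 of 50 groups examined held a value set apart from the other 3 by Dixon's gap test. Chance gives about 1 in 20 such groups. Sgce was highest in young library 2 at 11.8 RPKM, with the next at 9.83. Dtnb was highest in young library 2 at 3.43 RPKM, with the next at 2.03. Dpm1 was highest in young library 1 at 7.58 RPKM, with the next at 4.51. Sync was lowest in young library 1 at 2.72 RPKM, with the next at 2.92.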

How the results depend on the processing

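On library totals 789 genes were higher and 2279 lower in old animals, and on the deposited scale 4668 and 592. Without young libraries 1 and 2 the counts were 422 and 1336 on library totals, and 2665 higher on the deposited scale. The cause of the shifts in count was not tested. The lower genes numbered 714 at a mean of at least 5 RPKM, 9422 with no filter, 1336 with thinned reads and 1212 with receptor-gene signal subtracted, and on the deposited scale 64 at 5 RPKM and 6908 with no filter. Leaving out 1 library gave 504 to 886 higher and 1257 to 2207 lower genes on library totals, with counts moved by over 1.5 times without old library 4 (504 and 1423) and old library 2 (1257 lower), and 3768 to 4692 and 397 to 623 on the deposited scale. Sign changed on the deposited scale for Dmd (0.55), Utrn (0.42), Sgce (0.30), Sgca (0.14), Sgcb (0.079), Dpm1 (0.024), Lamc1 (0.079) and Lamb1 (0.081), where the scaling itself sets the shift. Dag1 and B4gat1 kept their direction and call under all 19 alternatives. The replicate block, for numbers that the labels do not name as pairs, gave 680 higher and 1669 lower genes. Among members it ended the call of Sntb1 only (adjusted p = 0.0518), and 1 of the 4 young libraries correlated best with its own number. Depth limits Sntb1 and Dtna most, with 20 to 43 reads per young library.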

Other observations

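Of the partner genes below the filter, 3 known mainly from other tissues had more reads in all young than in all old libraries despite the lower depth, Sgcz (28 and 4), Sntg1 (167 and 59) and Lama1 (116 and 41). The brain sarcoglycan Sgcz had 0.822 ± 0.962 RPKM in young and 0.0147 ± 0.0110 RPKM in old animals (SD, n = 4 each), the neuronal syntrophin Sntg1 1.25 ± 0.879 and 0.0605 ± 0.0138, and the embryonic laminin chain gene Lama1 0.874 ± 0.409 and 0.0488 ± 0.0230. The receptor genes averaged 0.202 to 0.982 RPKM in young and 0.0163 to 0.0360 RPKM in old libraries. Cav3, the caveolin of muscle fibres, had 9 reads in all young and 15 in all old libraries. These genes were named after their values were seen and were not tested.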
